A study of Mus musculus with 9 samples.

Results

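The genes described here encode 3 families of pre-mRNA splicing factors: the SR proteins (symbols beginning with Srsf), the heterogeneous nuclear ribonucleoproteins (hnRNPs, symbols beginning with Hnrnp) and the subunits of SF3a and SF3b. They were taken by symbol, pseudogene symbols left out, which gave 40 of the 22322 genes in the deposited table: 11 SR genes, 20 hnRNP genes, 3 SF3a genes and 6 SF3b genes. Their RNA was measured in long-term haematopoietic stem cells (LT-HSCs), the self-renewing cells at the top of the blood lineages, which had been sorted from the marrow of C57BL/6 mice as CD150+ CD48- CD135- cells within the c-Kit+ Sca-1+ Lin- fraction. The mice were 6 to 8 weeks old and were either wild type (WT), Cxcl10-/- or Cxcr3-/-. There were 3 mice per genotype and 1 library of 500 to 800 cells per mouse. Cxcl10 encodes a chemokine induced by interferon and Cxcr3 encodes its receptor. Their deletions are carried by every cell of the mouse as far as the labels say, so a difference in LT-HSCs is a difference between mice and not between cells treated in isolation.

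SR proteins bind exonic enhancers through RNA recognition motifs, and their arginine-serine domains recruit the splicing machinery, so they usually favour inclusion of an exon. Many hnRNPs coat nascent transcripts and often act in the opposite direction by masking splice sites or looping out exons. SF3a and SF3b are parts of the U2 snRNP, the particle that recognises the intron branch point. Mutations of SRSF2 and SF3B1 are recurrent in clonal disorders of human haematopoietic stem cells, and many SR and hnRNP genes limit their own expression by splicing in exons that send the transcript to nonsense-mediated decay.

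The libraries held 12098498 to 17904629 expected counts each. Cxcl10 had 0 counts in each Cxcl10-/- library, against 36, 84 and 3 in WT and 112, 553 and 176 in Cxcr3-/-. Cxcr3 itself was nearly silent, with 8 counts in WT replicate 3 and 0 in the other libraries, and could not check the Cxcr3-/- label. The 13 genes of the LT-HSC list summed to 704 to 810 FPKM (fragments per kilobase of transcript, scaled to the library total) in WT, 691 to 809 in Cxcl10-/- and 713 to 766 in Cxcr3-/-. The list includes Cd48 and Flt3, which encode the CD48 and CD135 that the sort selected against, so its sum does not measure LT-HSC identity. Cd48 ran from 0 to 7.94 FPKM in Cxcl10-/-, from 8.76 to 20.1 in WT and from 0.18 to 19.6 in Cxcr3-/-. Flt3 ran from 6.45 to 13.8, from 4.17 to 6.08 and from 6 to 8.61 in the same order. Of the 13, Kit was called lower in Cxcl10-/- than in WT (-0.75 ± 0.17, SE, edgeR adjusted p = 0.026), and Kit and Cd34 were called higher in Cxcr3-/- than in Cxcl10-/-. Slamf1, which encodes the sort marker CD150, ran from 0.69 to 4.12 FPKM in Cxcl10-/-, from 5.23 to 7.4 in WT and from 5.65 to 9.24 in Cxcr3-/-, and was not called. The Cxcl10-/- libraries differed from the others in several features that were not splicing genes. Transcripts of the mitochondrial genome took 3.57% to 4.13% of their counts, against 12.6% to 13.1% in WT and 10.2% to 11.2% in Cxcr3-/-. The 12 endothelial markers summed to 533 to 751 FPKM in Cxcl10-/-, 109 to 150 in WT and 104 to 160 in Cxcr3-/-, and 5 of the 12 (Fabp4, Stab1, Stab2, Cldn5 and Flt4) were called higher in Cxcl10-/- than in WT. Fabp4 alone gave 287 to 455 FPKM of the Cxcl10-/- sums. The other endothelial markers were not called. Of these, Cdh5 (3.38 to 12.4 FPKM, against 0 to 1.15 in WT) and Kdr (4.32 to 8.98 against 0.7 to 1.4) were higher in every Cxcl10-/- library. So were Plvap (2.97 to 3.42 against 0 to 0.25) and Egfl7 (74.6 to 124 against 37.5 to 61.1). Pecam1 (2.65 to 11.1 against 3.23 to 9.9), Emcn (39.4 to 49.1 against 34 to 49.1) and Esam (27.5 to 36.1 against 14 to 31.1) overlapped WT. The 16 immediate-early genes summed to 403 to 776 FPKM against 76.8 to 88.5 in WT, and the 30 genes of G2 and mitosis to 168 to 444 against 673 to 919. The 9 stromal and bone markers summed to 50.4, 246 and 38.2 FPKM in Cxcl10-/- replicates 1, 2 and 3, against 15.4 to 17.7 in WT. Of the 9, 5 were tested and 3 (Ibsp, Cxcl12 and Adipoq) were called higher in Cxcl10-/- than in WT. Runx2 went the other way without being called (8.05 to 10.7 FPKM in Cxcl10-/-, against 13.4 to 15.9 in WT). Other sums set Cxcr3-/- apart from WT: 218 to 403 FPKM against 555 to 683 for the 7 monocyte and macrophage markers, and 464 to 576 against 284 to 386 for the 6 megakaryocyte markers. Lyz2 made up most of the monocyte sums (210 to 391 against 543 to 661 in WT), while Csf1r was higher in Cxcr3-/- (1.68 to 4.38 against 0 to 1.39). Pf4 made up most of the megakaryocyte sums (418 to 518 against 247 to 340), and Ppbp overlapped WT (3.82 to 16.9 against 10.1 to 25.3). The part of these differences in the results on splicing genes was not tested. In bulk RNA, fewer cells of a type and less RNA per cell cannot be told apart.

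Splicing factor genes were among the more abundant and the steadier genes of these cells. The 39 that reached a mean of 1 FPKM and were tested had a median of 91 FPKM, against 10.7 for all 10866 tested genes. Their median biological coefficient of variation between replicates, as edgeR estimated it, was 18%, against 36.8% for the other tested genes. It ranged from 13.3% for Srsf3 to 64.2% for Sf3a2 among the members. Genes of higher expression vary less in such estimates, and the members were not compared with other genes of their level. In WT the 40 genes together took 1.2 ± 0.01% of the counts (SD, n = 3).

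By the mean over all 9 libraries, the SR genes of highest level were Srsf2, Srsf7 and Srsf5. Srsf7, whose protein also serves as an adaptor for mRNA export, stood at 783, 678 and 613 FPKM in WT, which made it the first of the 40 genes in that group. Srsf2, which encodes the speckle protein SC35, stood at 503, 516 and 541 FPKM in WT, and Srsf5 at 324, 233 and 245 FPKM. In WT alone Srsf3, at 295, 281 and 281 FPKM, averaged slightly more than Srsf5, and the values of these genes overlapped. The WT values of Srsf7 and Srsf2 did not overlap, nor did those of Srsf2 and Srsf5. At the other end, Srsf12 averaged 0.277 ± 0.235 FPKM in WT (SD, n = 3), had as few as 1 count in a library and was left untested.

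In the hnRNP family Hnrnpa2b1, a factor of splicing and RNA transport, led with 627, 644 and 619 FPKM in WT. By the mean over all 9 libraries its relatives Hnrnpa3 (310, 341 and 332 FPKM in WT) and Hnrnpa1 (235, 235 and 308 FPKM in WT) followed, whereas in WT alone Hnrnpf (246, 287 and 260 FPKM) overlapped Hnrnpa1 and averaged slightly more. The WT values of Hnrnpa3 lay just above those of Hnrnpa1 with no overlap. In SF3, Sf3b6, which encodes the small subunit that lies at the branch-point adenosine, stood at 638, 510 and 532 FPKM in WT. Sf3b1, which encodes the large scaffold subunit, had 117, 120 and 125 FPKM and Sf3b2 50.9, 50.2 and 63.3 FPKM. Subunits of the same complex therefore differed widely in RNA level per length, and Sf3a2, at 1.85 ± 0.526 FPKM in WT (SD, n = 3), was the lowest tested member.

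By summed FPKM the hnRNP genes held 49.1 ± 2.14% of the family RNA in WT, the SR genes 36.4 ± 1.42% and the SF3 genes 14.6 ± 0.802% (SD, n = 3). In Cxcl10-/- the shares were 52.2 ± 1.45%, 35.7 ± 0.436% and 12 ± 1.84%. In Cxcr3-/- they were 54.1 ± 2.66%, 33.1 ± 1.15% and 12.8 ± 1.51%. The hnRNP share lay above the WT range of 46.6% to 50.3% in every Cxcl10-/- library (51.3% to 53.9%) and every Cxcr3-/- library (51.6% to 56.9%).

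**Figure D1:**
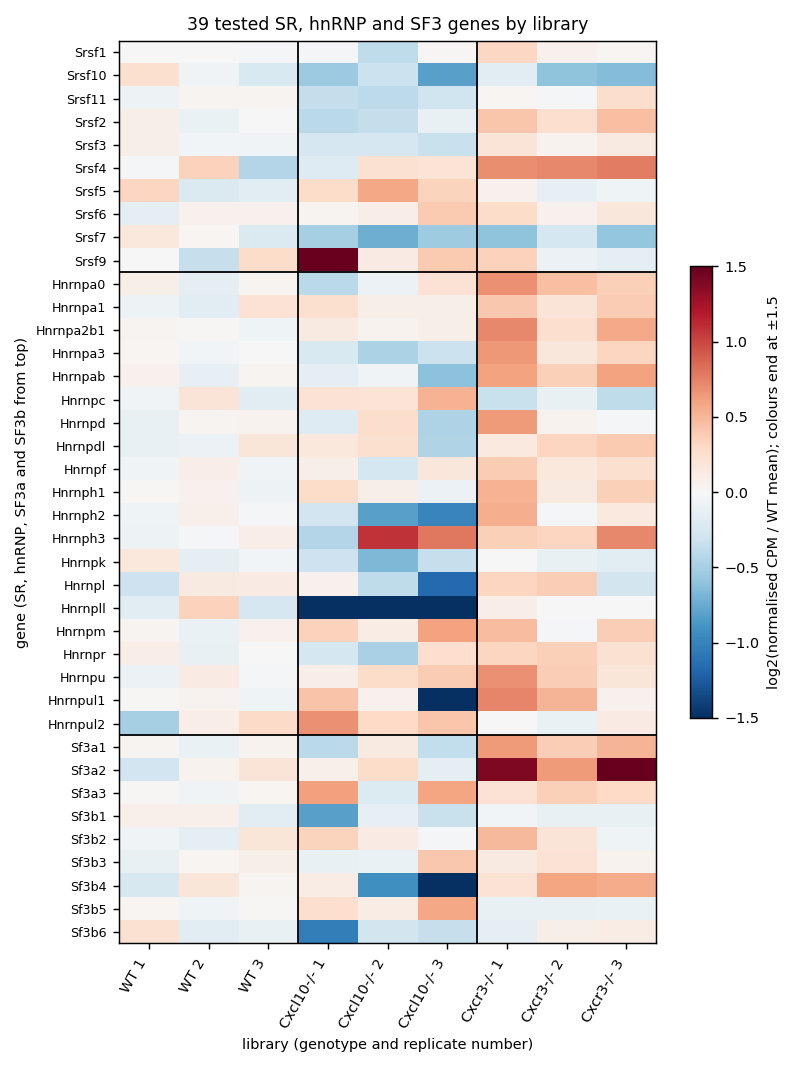
Normalised CPM (counts scaled to library total and TMM factor) of the 39 tested genes in each of the 9 libraries, as log2 of the ratio to the WT mean, with genes grouped by family and genotypes parted by vertical lines. Red is above and blue below the WT mean, and colours end at ±1.5. Hnrnpll is dark blue in all 3 Cxcl10-/- libraries, and most genes are pale red in Cxcr3-/-.

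Promoter sequence is a feature that the choice of genes by symbol did not use, and the promoters of these genes were compared with all promoters in RefSeq (GRCm38.p6). Of the 40 genes 36 had an entry (not Hnrnpll, Hnrnpul2, Sf3b4 or Sf3b5), and the 250 bases before the annotated start were read. Their median GC content was 62.6%, against 52% for the promoters of 27025 genes, and they held a median of 22.5 CpG dinucleotides against 6. Of 8 motifs searched on both strands, GGGCGG (the GC box) was in 75% of the members and 32.9% of all promoters. CCAAT was in 47.2% against 34.5%, TGACG (the core of the cAMP response element) in 41.7% against 17.9% and CCGGAAG (an ETS motif) in 33.3% against 7.05%. TATAAA was in 11.1% against 13%, GCGCATGC in 2.78% against 2.32%, TCTCGCGA in 5.56% against 0.925% and TGACTCA in 2.78% against 4.43%. The motifs rich in G and C were not matched for base composition, and a match is a description of letters, not of a bound site. The 27025 genes were not chosen by expression, and the members were not compared with promoters of other genes of their level. Whether these features are particular to splicing factor genes was therefore not tested.

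The 5 promoters below belong to genes whose counts differed between genotypes, and they were chosen after those values were seen. Each runs 5′ to 3′ on the gene's strand and ends at the base before the annotated start, with capitals at every match to any of the 8 motifs on either strand.
Srsf2, chr11:116853095-116853344, minus strand: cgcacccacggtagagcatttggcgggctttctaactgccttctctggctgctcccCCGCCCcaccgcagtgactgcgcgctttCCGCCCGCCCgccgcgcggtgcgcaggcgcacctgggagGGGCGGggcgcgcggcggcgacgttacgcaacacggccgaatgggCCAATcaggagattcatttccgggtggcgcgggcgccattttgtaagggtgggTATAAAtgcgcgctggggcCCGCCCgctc
Srsf3, chr17:29032410-29032659, plus strand: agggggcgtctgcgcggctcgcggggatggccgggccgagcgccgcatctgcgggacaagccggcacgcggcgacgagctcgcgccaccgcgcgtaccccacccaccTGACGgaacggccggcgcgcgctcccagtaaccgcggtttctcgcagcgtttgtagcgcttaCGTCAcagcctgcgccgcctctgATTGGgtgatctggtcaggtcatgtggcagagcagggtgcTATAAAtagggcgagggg
Srsf7, chr17:80207306-80207555, minus strand: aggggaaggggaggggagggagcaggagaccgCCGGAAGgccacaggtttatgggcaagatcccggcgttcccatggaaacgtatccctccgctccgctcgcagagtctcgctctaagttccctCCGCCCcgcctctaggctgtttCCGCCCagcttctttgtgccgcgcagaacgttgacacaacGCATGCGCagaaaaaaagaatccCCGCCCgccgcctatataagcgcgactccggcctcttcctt
Hnrnpa3, chr2:75659009-75659258, plus strand: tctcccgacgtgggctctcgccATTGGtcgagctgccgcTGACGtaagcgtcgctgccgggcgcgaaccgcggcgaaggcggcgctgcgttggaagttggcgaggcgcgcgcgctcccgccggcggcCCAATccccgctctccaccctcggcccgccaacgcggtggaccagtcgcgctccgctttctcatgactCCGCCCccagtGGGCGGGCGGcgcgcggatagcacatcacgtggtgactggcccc
Hnrnpc, chr14:52104022-52104271, minus strand: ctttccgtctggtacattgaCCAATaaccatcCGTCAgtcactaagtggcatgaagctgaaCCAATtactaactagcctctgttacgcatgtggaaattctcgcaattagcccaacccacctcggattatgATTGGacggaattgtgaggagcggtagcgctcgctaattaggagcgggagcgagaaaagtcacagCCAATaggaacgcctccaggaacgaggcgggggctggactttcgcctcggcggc
The Srsf2 promoter held 5 GGGCGG matches, of which one pair overlaps, a CCAAT 82 bases and a TATAAA 29 bases before the start. That of Srsf3 held no GGGCGG, with 2 TGACG matches, 1 CCAAT and a TATAAA. Srsf7 had 3 GGGCGG matches, a CCGGAAG and the single GCGCATGC of the set. Hnrnpa3 had 3 GGGCGG matches, 2 of them overlapping, and Hnrnpc, the gene that was lower in Cxcr3-/- than in Cxcl10-/-, had none and 4 CCAAT matches.

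Cxcl10-/- against WT asks what the absence of the ligand goes with in LT-HSCs. Counts were tested with edgeR, and a gene was called at an adjusted p under 0.05. Hnrnpll and Srsf7 were lower in Cxcl10-/-, and the other 37 tested genes were not called. The 2 calls of 39 are 5.13%, against 7.22% of all 10866 genes (785). No member was called higher, where 3.52% of genes were, and 2 were called lower, where 3.7% of genes were, so the members' share was near the background.

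Hnrnpll encodes a relative of hnRNP L that is known for changing the splicing of CD45 in lymphocytes. Its level, in CPM scaled by library total and TMM factor, was 83, 119 and 78.4 in WT, 19, 25.1 and 31.4 in Cxcl10-/- and 99.8, 93 and 92.7 in Cxcr3-/-. Every Cxcl10-/- library was well below every other library, and WT and Cxcr3-/- overlapped. The fitted log2 difference from WT was -1.89 ± 0.26 (SE, n = 3 per group, adjusted p = 0.00314), to 0.269 of the WT level. It was called under all 12 other analyses and without any one of the 9 libraries, with log2 differences between -2.08 and -1.41. Hnrnpl, its nearest relative by name, stood at 17.6, 24 and 23.9 CPM in WT and 22.9, 16.8 and 9.78 in Cxcl10-/-, and was not called (-0.41 ± 0.41, adjusted p = 0.59). The range of 2 SE on either side of that difference, -1.22 to 0.41, still holds a fall of more than 2-fold.

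Srsf7 was at 1350, 1233 and 1035 CPM in WT, 853, 727 and 833 in Cxcl10-/- and 796, 1007 and 807 in Cxcr3-/-. Both knockouts lay below WT in every library, and the knockouts overlapped. Against WT the log2 difference was -0.58 ± 0.14 in Cxcl10-/- (SE, adjusted p = 0.0317), or 0.667 of the WT level. In Cxcr3-/- it was -0.47 ± 0.14 and was not called (adjusted p = 0.642). The Cxcl10-/- call was lost without WT replicate 1, WT replicate 2 or Cxcl10-/- replicate 2. Of the 12 other analyses 7 called it. Limma on log2(FPKM + 1) and on log2(FPKM + 0.1), voom and the replicate block did not. Nor did the offset for GC content and length, with which the difference was -0.09 (adjusted p = 0.765).

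Hnrnpk, a poly(C)-binding hnRNP, had the next smallest p and did not pass. It stood at 789, 642 and 685 CPM in WT and 567, 442 and 555 in Cxcl10-/- (-0.44 ± 0.14, SE, adjusted p = 0.0814). The groups did not overlap, as was so for 15 of the 39 members (10 lower and 5 higher in Cxcl10-/-) and for 30.3% of all genes. The median log2 difference of the members was -0.07, against 0.06 for all genes, and the median size regardless of sign was 0.28 against 0.50. Hnrnpll was the only member past 2-fold, while 20.3% of all genes were.

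By family, 4 of the 10 tested SR genes had a positive sign (median -0.20, range -0.58 to 0.84), as had 10 of the 20 hnRNP genes (median -0.03) and 5 of the 9 SF3 genes (median 0.08). Several members varied among the Cxcl10-/- mice more than between genotypes. Srsf9, which held the largest positive difference (0.84 ± 0.37, adjusted p = 0.179), was at 132 CPM in Cxcl10-/- replicate 1 and at 48.4 and 58.2 in the others, against 34.8 to 53.4 in WT. Sf3b4, an RNA-binding SF3b subunit gene, was at 30, 14.7 and 6.69 CPM in Cxcl10-/- and at 23.5 to 31.3 in WT. Hnrnph3 was at 40.6, 117 and 95.1 CPM in Cxcl10-/- and at 52.2 to 58.8 in WT. These 3 genes were named for their spread after the values were seen.

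Base composition moved with this comparison. Across all genes, the median log2 difference was -0.34 in the genes of lowest GC content (of 3 equal groups), 0.10 in the middle group and 0.42 in the group of highest GC content. Of the 39 members 22 fell in the lowest group, where their median was -0.13. The members of the other groups did not follow the trend of all genes: the 10 in the middle group had a median of 0.05 and the 7 in the highest group -0.07. The median GC content of all tested members was 44.1% against 49.1% for all tested genes. With an offset for GC content and length fitted in each library, 5 members were called where 5.33% of all genes were. Hnrnpll remained lower (-1.41, adjusted p = 0.00946), while Hnrnph1 (0.80, 0.00846), Srsf5 (0.95, 0.00612), Hnrnpu (0.61, 0.0272) and Hnrnpc (0.68, 0.0184) were then higher in Cxcl10-/-. Of the 2 members called without the offset, Hnrnpll alone was called with it.

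**Figure D2:**
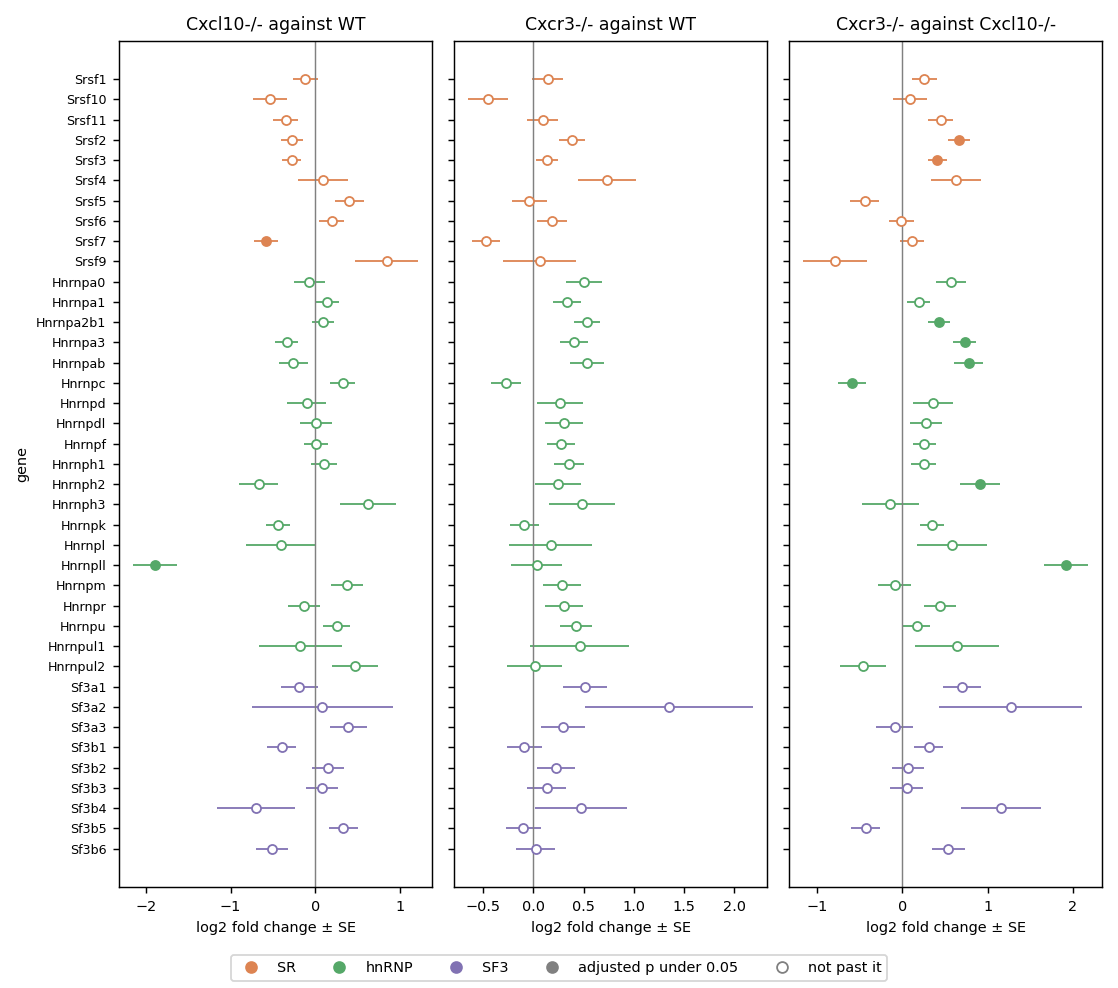
Log2 fold change with its standard error (edgeR, 3 libraries per genotype) of the 39 tested genes in the 3 comparisons, coloured by family. Filled points passed an adjusted p of 0.05. Hnrnpll and Srsf7 are filled on the left, none in the middle and 8 on the right, where most points lie above 0.

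Cxcr3-/- against WT asks the same of the receptor. No member was called, nor was any of the 10866 genes by edgeR (0% background). At an unadjusted p under 0.05 there were 12 of the 39 members and 681 of all genes. DESeq2 called 68 genes and limma-voom with a weight per genotype 42, and each had Hnrnpa2b1 as its one member (adjusted p = 0.0241 and 0.0421).

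Hnrnpa2b1 stood at 1050, 1035 and 977 CPM in WT and 1681, 1211 and 1518 in Cxcr3-/- (0.53 ± 0.13, SE, adjusted p = 0.552). Hnrnpab, which encodes the A/B-type hnRNP also known as CBF-A, stood at 335, 295 and 330 CPM in WT and 485, 411 and 486 in Cxcr3-/- (0.53 ± 0.17, adjusted p = 0.643). With Srsf7 these were the members of smallest p. In all 3 genes the Cxcr3-/- libraries lay entirely to one side of WT, and in none did the difference pass. Sf3a2, named after its values were seen, was the only member past 2-fold, at 1.87, 2.36 and 2.61 CPM in WT and 6.04, 3.56 and 7.87 in Cxcr3-/- (1.35 ± 0.84, SE, adjusted p = 0.894), where its low counts leave a wide error.

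The signs leaned one way: 32 of the 39 members were higher in Cxcr3-/- than in WT, where 52.1% of all genes were. The median was 0.26 for the members and 0.02 for all genes. In 18 members every Cxcr3-/- library was above every WT library, and in 2 every one was below, against 9.81% and 9.04% of all genes. By family, 18 of the 20 hnRNP genes (median 0.30), 7 of the 10 SR genes (median 0.11) and 7 of the 9 SF3 genes (median 0.22) had a positive sign. The members took 1.31% to 1.55% of all counts in Cxcr3-/- and 1.19% to 1.21% in WT. One library weighed on the size: the highest share was that of Cxcr3-/- replicate 1, and without it the median was 0.13, with 30 of 39 signs positive. The signs of related genes measured in the same libraries are not independent observations, and the count describes these libraries only.

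Cxcr3-/- against Cxcl10-/- compares the 2 knockouts directly. The count of called members was 8 of 39 (20.5%), where 10.5% of all genes (1142) were called. Higher in Cxcr3-/- were 7 members, Hnrnpll, Hnrnpa3, Srsf2, Hnrnpab, Hnrnph2, Srsf3 and Hnrnpa2b1, where 5.1% of genes were called in that direction, and Hnrnpc was lower (5.41% of genes). Without Cxcr3-/- replicate 1, or without replicate 3, the count was 3, and without WT replicate 1 it was 5. Hnrnpll, Hnrnpa3 and Srsf2 were the members called whichever library was left out. The WT libraries enter this comparison only through the estimate of the spread; with the 6 knockout libraries alone the same 3 members were called.

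Hnrnpll had the largest difference, 1.92 ± 0.26 (SE, n = 3 per group, adjusted p = 0.0018), or 3.78-fold, with the values given above. Hnrnpa3, which encodes an A-type hnRNP of mRNA trafficking, stood at 853, 815 and 841 CPM in WT, 711, 604 and 671 in Cxcl10-/- and 1316, 939 and 1047 in Cxcr3-/-. The 3 genotypes did not overlap for Hnrnpa3, with WT between the knockouts. Its difference was 0.73 ± 0.14 (adjusted p = 0.00859), and 0.28 with the GC and length offset (adjusted p = 0.198).

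Srsf2 stood at 529, 464 and 494 CPM in WT, 376, 387 and 460 in Cxcl10-/- and 660, 591 and 679 in Cxcr3-/-. Again WT lay between the knockouts with no overlap. The difference of 0.66 ± 0.13 (SE, adjusted p = 0.0121) was called under all 12 other analyses and without any 1 library. Exons of Mettl23 and Mfsd11 overlap those of Srsf2 on the opposite strand in GENCODE M21, and whether the counting used strand is not given in the sources used here, so reads of these genes cannot be told apart from those of Srsf2.

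Hnrnpab stood at 288, 308 and 209 CPM in Cxcl10-/-, below the 411 to 486 of Cxcr3-/-. The difference was 0.78 ± 0.17 (SE, adjusted p = 0.0142), and 0.95 with the GC and length offset (0.00743). It did not pass without Cxcr3-/- replicate 1 or replicate 3. Exons of Phykpl overlap those of Hnrnpab on the opposite strand.

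Hnrnph2, an X-linked relative of Hnrnph1 that binds runs of G, stood at 117, 129 and 121 CPM in WT, 100, 69.6 and 61.5 in Cxcl10-/- and 178, 121 and 135 in Cxcr3-/-. The Cxcl10-/- libraries were below all others, and Cxcr3-/- overlapped WT. The difference between the knockouts was 0.91 ± 0.23 (SE, adjusted p = 0.0273). It was lost without any one of 4 libraries, Cxcl10-/- replicates 2 and 3 and Cxcr3-/- replicates 1 and 3, and with the GC and length offset (0.51, adjusted p = 0.191).

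Srsf3, which encodes the small SR protein SRp20, stood at 828, 757 and 748 CPM in WT, 653, 654 and 618 in Cxcl10-/- and 889, 808 and 856 in Cxcr3-/-. It was the steadiest member between replicates, and the knockouts did not overlap. Its difference of 0.41 ± 0.11 (SE, adjusted p = 0.0408) did not pass after any one of the 9 libraries was left out, and was 0.02 with the GC and length offset (0.95). Hnrnpa2b1, at 1122, 1062 and 1083 CPM in Cxcl10-/-, differed by 0.43 ± 0.13 (adjusted p = 0.0496). That value lies at the threshold, and of the 12 other analyses DESeq2 alone called it.

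Hnrnpc encodes a hnRNP that binds uridine tracts and keeps hidden splice sites from use. It stood at 419, 500 and 387 CPM in WT, 505, 502 and 626 in Cxcl10-/- and 346, 405 and 334 in Cxcr3-/-. It was the one called member that ran against the others, with Cxcl10-/- above and Cxcr3-/- overlapping WT from below. The difference was -0.59 ± 0.16 (SE, adjusted p = 0.0321), and -0.82 with the GC and length offset (0.00658). Leaving out WT replicate 1, Cxcl10-/- replicate 3, or Cxcr3-/- replicate 1 or 3 ended the call.

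**Figure D3:**
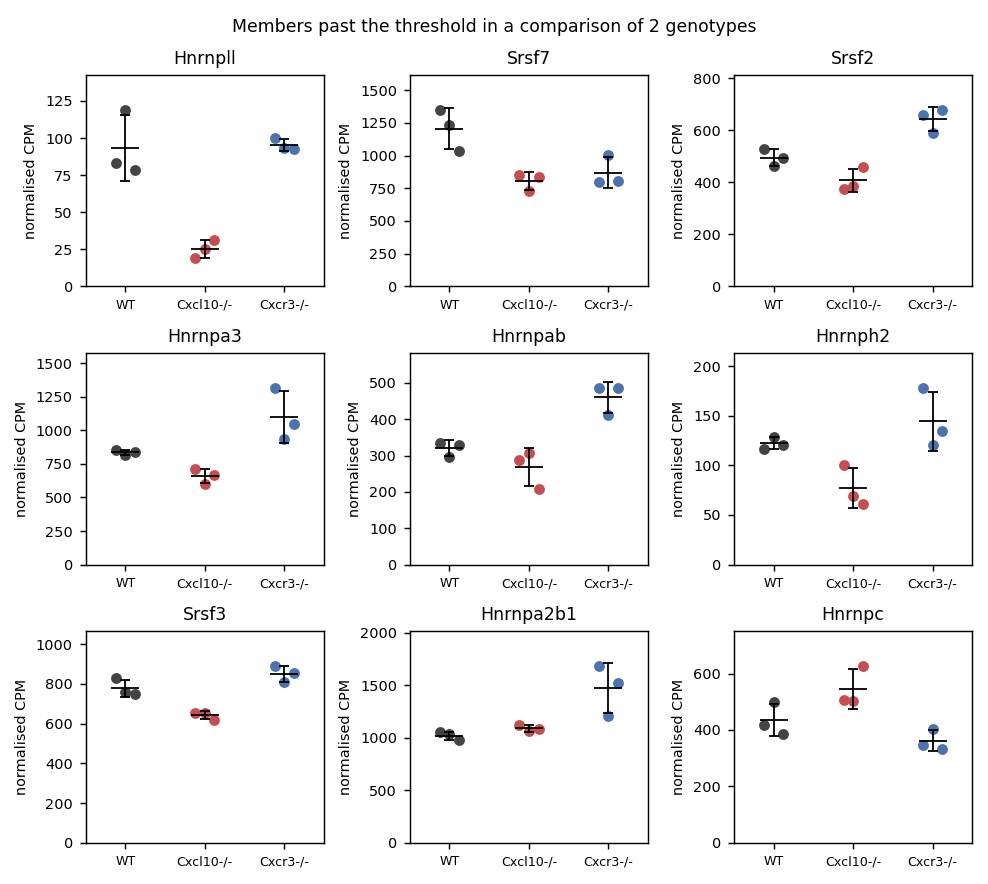
Normalised CPM by genotype of the 9 members called in a comparison of 2 genotypes, with 1 point per library and the mean ± SD (n = 3) in black, each axis starting at 0. For Hnrnpll the Cxcl10-/- libraries sit between 19 and 31.4, below all others, and for Hnrnpa3 and Srsf2 the WT libraries lie between the knockouts.

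Between the knockouts the members had a median log2 difference of 0.31, against -0.05 for all genes, and 30 of 39 were higher in Cxcr3-/-, as were 47.6% of all genes. In the groups of lowest, middle and highest GC content the medians of all genes were 0.26, -0.09 and -0.29. The 22, 10 and 7 members in these groups had medians of 0.28, 0.15 and 0.63, so in the lowest group the members were near all genes. With the GC and length offset the median of the 39 members was 0.11, and 24 of 39 were higher. With that offset 7 members were called, where 8.62% of genes were. Of the 8 members named above, 4 were among them: Hnrnpll, Srsf2, Hnrnpab and Hnrnpc. The others were Hnrnpa0 (0.82, adjusted p = 0.0234), which was higher in Cxcr3-/-, and Srsf5 (-0.86, 0.00692) and Sf3b5 (-0.60, 0.0479), which were lower. By edgeR on all 9 libraries without the offset, no SF3a or SF3b gene was called, and the 9 had a median of 0.31. DESeq2 called Sf3a1 and Sf3b6 higher in Cxcr3-/-. In edgeR, Sf3a1 passed without Cxcl10-/- replicate 2, and Sf3b4 passed without Cxcl10-/- replicate 1. A test of any difference among the 3 genotypes called 6 of the 39 members (15.4%), Hnrnpll, Hnrnpa3, Srsf2, Hnrnpab, Hnrnpa2b1 and Srsf7, where 8.39% of all genes were called.

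Ratios between near relatives within a library do not depend on how the library was scaled. For 6 pairs picked after the values were seen, they are given as a description. The ratio of Srsf7 to Srsf3 counts was 1.63, 1.63 and 1.38 in WT, 1.31, 1.11 and 1.35 in Cxcl10-/- and 0.895, 1.25 and 0.943 in Cxcr3-/-. Both knockouts lay below WT. The ratio of Hnrnph2 to Hnrnph1 was 0.252, 0.268 and 0.276 in WT, 0.18, 0.142 and 0.142 in Cxcl10-/- and 0.268, 0.238 and 0.229 in Cxcr3-/-. The ratio of Hnrnpa3 to Hnrnpa1 was 2.04, 2.08 and 1.64 in WT, 1.37, 1.29 and 1.43 in Cxcl10-/- and 2.25, 1.86 and 1.82 in Cxcr3-/-. In both pairs Cxcl10-/- was below the other genotypes with no overlap. The ratio of Hnrnpll to Hnrnpl was 4.7, 4.93 and 3.28 in WT and 0.829, 1.49 and 3.21 in Cxcl10-/-, where replicate 3 came near the lowest WT value. In the remaining pairs, Hnrnpab to Hnrnpd and Srsf5 to Srsf6, each knockout overlapped WT.

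Other genes of the splicing pathway were read from 6 lists. In Cxcr3-/- against WT none of them had a called gene. In Cxcl10-/- against WT, where 3.52% of all genes were called higher and 3.7% lower, the 29 core snRNP protein genes had 2 called higher: Snrpd2, an Sm ring protein gene (1.12 ± 0.19, SE, adjusted p = 0.00646), and Prpf6, a gene of the tri-snRNP (1.51 ± 0.28, 0.0104). Among 15 partners of the U2 particle and the branch point, Phf5a, which encodes a subunit that sits with SF3b, was higher (0.84 ± 0.22, 0.0417) and Smndc1 was lower (-1.33 ± 0.30, 0.0223). Of the 21 helicase and Prp19 complex genes 20 were tested, and the helicase gene Ddx39b was higher (0.73 ± 0.20, 0.0488). Of 28 tested SR-related and SR kinase genes, Son (0.75 ± 0.13, 0.00646) and Rbm25 (0.54 ± 0.14, 0.0408) were higher. Of 35 genes of hnRNP-like proteins under other names, Raly was higher (1.33 ± 0.32, 0.0321) and Matr3 (-0.94 ± 0.14, 0.00387), Mbnl2 (-0.68 ± 0.18, 0.042) and Qk (-0.86 ± 0.23, 0.0442) were lower. Among 14 tested genes of nonsense-mediated decay and the exon junction complex, Rbm8a, an exon junction core gene, was higher (1.11 ± 0.15, 0.00275).

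Between the knockouts, where 5.1% of all genes were called higher and 5.41% lower, the hnRNP-like list had 8 of 35 genes higher in Cxcr3-/-, among them Matr3 (0.98 ± 0.14, SE, adjusted p = 0.00215), the paraspeckle gene Nono (0.75 ± 0.14, 0.00828) and the cold-inducible Rbm3 (1.07 ± 0.21, 0.0108), and Raly was lower (-1.29 ± 0.32, 0.0271). Its median was 0.50, against -0.05 for all genes. The core snRNP list had Prpf8 higher (0.80 ± 0.22, 0.0406) and 6 of 29 lower, led by Snrpd2 (-1.31 ± 0.19, 0.00226), Prpf6 (-1.69 ± 0.29, 0.0054) and Snrpa1 (-1.09 ± 0.23, 0.0133), with a median of -0.07. In the U2 list Smndc1 was higher (1.68 ± 0.30, 0.00676), and Phf5a (-1.59 ± 0.23, 0.00218) and U2af1, a reader of the intron end (-0.87 ± 0.20, 0.02), were lower. Pnn was higher (0.68 ± 0.20, 0.0478), whereas Son (-0.92 ± 0.13, 0.00196), Rbm25 (-0.55 ± 0.14, 0.0298) and Srrm2 (-0.96 ± 0.25, 0.032) of the SR-related list were lower. Syf2 (-0.85 ± 0.19, 0.0181), Bcas2 (-0.61 ± 0.15, 0.0264) and Rbm8a (-1.24 ± 0.15, 0.00108) were lower as well. These comparisons share the Cxcl10-/- libraries, so calls of opposite sign in both are not separate observations.

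The counts and FPKM of a gene carry a further measurement. Dividing the count by the FPKM and the library total gives the transcript length that the authors' FPKM assumed in that library. For 502 of 511 genes with 1 annotated transcript (98.2%) it matched the GENCODE M21 length within 1% in every library, so for genes with several transcripts it gives the mean length over the transcripts to which the reads were assigned. This reading was chosen after the data were seen. Of the 38 members with enough counts, 15 varied by less than 0.02 on the log2 scale over the 9 libraries and 11 by at least 0.2. Among the 15 were Hnrnpa0 and Sf3b5, which have 1 annotated transcript each, so their length could not vary.

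Srsf1, the gene of the founding SR protein ASF/SF2, had mean lengths of 3440, 3156 and 3090 bases in WT, 1990, 1950 and 1985 in Cxcl10-/- and 2845, 3174 and 2384 in Cxcr3-/-. All Cxcl10-/- libraries were shorter than all others, and Cxcr3-/- overlapped WT. The log2 difference from WT was -0.71 ± 0.10 in Cxcl10-/- (limma, SE, adjusted p = 0.0806 over 7939 genes), which is not past the threshold. An earlier run on genes whose length varied by an SD of at least 0.02 gave 0.0315 for the same difference; that filter was dropped because it favours genes that differ between groups. No member passed in any comparison, where 0.239% of genes did in Cxcl10-/- against WT, 0% in Cxcr3-/- against WT and 0.516% between the knockouts. Without Cxcr3-/- replicate 3, Srsf1 passed in Cxcl10-/- against WT (adjusted p = 0.0276). Without WT replicate 3 Hnrnpll passed against WT in both knockouts (adjusted p = 0.0181 and 0.0285), with a length difference of 0.01 on the log2 scale in each.

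The annotated transcripts of Srsf1 differ mainly after the last shared coding exon. Srsf1-205 (5362 bases, 744 of them coding) has 4152 bases from its stop codon on, while Srsf1-201 has 2948 bases and Srsf1-202 has 1209. In Srsf1-202 the coding exon is spliced onward after chr11 base 88049598 (GRCm38, plus strand), where Srsf1-205 reads on. The letters show the difference, with 15 bases before that point in lower case and the 15 that follow in each transcript in capitals.
Srsf1-205: gcagatctcgctctcGTACATAAGATGATT
Srsf1-202: gcagatctcgctctcACATATCTGAAGAGA
Srsf1-204 and Srsf1-207, of 896 and 401 bases, are annotated as targets of nonsense-mediated decay. Whether any of these transcripts changed, and which, cannot be read from a mean length that did not pass the threshold.

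**Figure D4:**
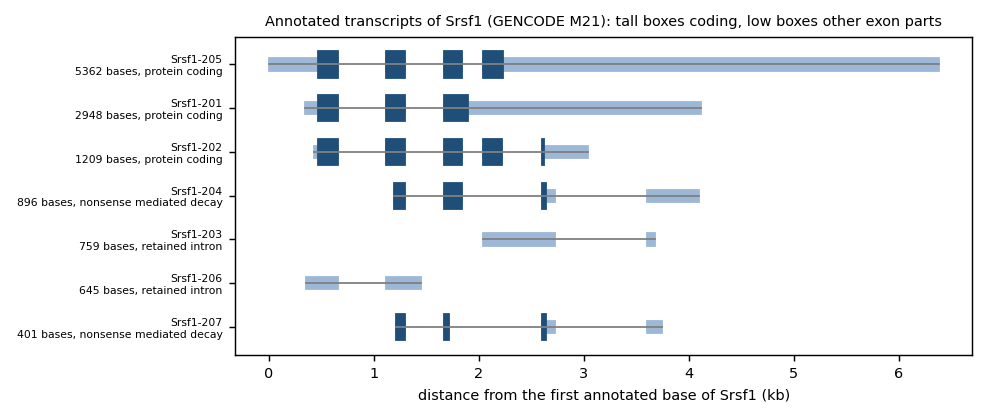
Exons of the 7 annotated Srsf1 transcripts (GENCODE M21) by distance from the first annotated base of the gene in kb, with coding parts as tall dark boxes and other exon parts as low pale boxes. The last exon of Srsf1-205 runs from 2.039 to 6.382 kb, and Srsf1-202 splices out 2.225 to 2.604 kb of that stretch and ends at 3.037 kb.

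FPKM divide by this length, and the sign of the difference for Srsf1 was not the same in counts and in FPKM. The CPM of Srsf1 were 367, 366 and 362 in WT and 361, 280 and 369 in Cxcl10-/-. The log2 difference in counts was -0.12 ± 0.15 (SE, edgeR adjusted p = 0.681), smaller than its SE. Counts fitted with the GC and length offset gave a positive sign as well, so the sign did not turn on the unit alone. On the log2(FPKM + 1) scale, where limma called 3 members (Hnrnpll, Srsf1 and Sf3b1) and 9.28% of genes, the difference was 0.66 ± 0.17 (adjusted p = 0.0364). Sf3b1 showed the opposite: its mean length was 4031, 4120 and 3353 bases in WT, 6195, 6195 and 4374 in Cxcl10-/- and 5606, 4930 and 5773 in Cxcr3-/-. Every knockout library was longer than every WT library, and 6195 bases is the length of the protein-coding Sf3b1-201, the other transcripts being annotated as retained introns, decay targets or processed transcripts. The length differences were 0.53 ± 0.16 in Cxcl10-/- (limma adjusted p = 0.383) and 0.51 ± 0.16 in Cxcr3-/- (0.796), neither past the threshold. In counts Sf3b1 differed by -0.40 ± 0.17 in Cxcl10-/- against WT (adjusted p = 0.181) and in FPKM by -0.85 ± 0.22 (0.0351).

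Srsf1 and Sf3b1 were the 2 of 38 members whose lengths did not overlap between Cxcl10-/- and WT and differed by at least 0.2 (log2), against 4.01% of genes. Sf3b1 was the 1 in Cxcr3-/- against WT (3.21% of genes). Between the knockouts they were Srsf1 and Hnrnpm (4.95% of genes). Hnrnpm had mean lengths of 992, 1030 and 1113 bases in Cxcl10-/- and 795, 919 and 810 in Cxcr3-/- (-0.31 ± 0.07, SE, adjusted p = 0.185), and 1009, 919 and 955 in WT. By contrast Srsf3, with 10 annotated transcripts, stayed between 2615 and 2618 bases in all libraries. Srsf1, Sf3b1 and Hnrnpm were named after their values were seen.

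**Figure D5:**
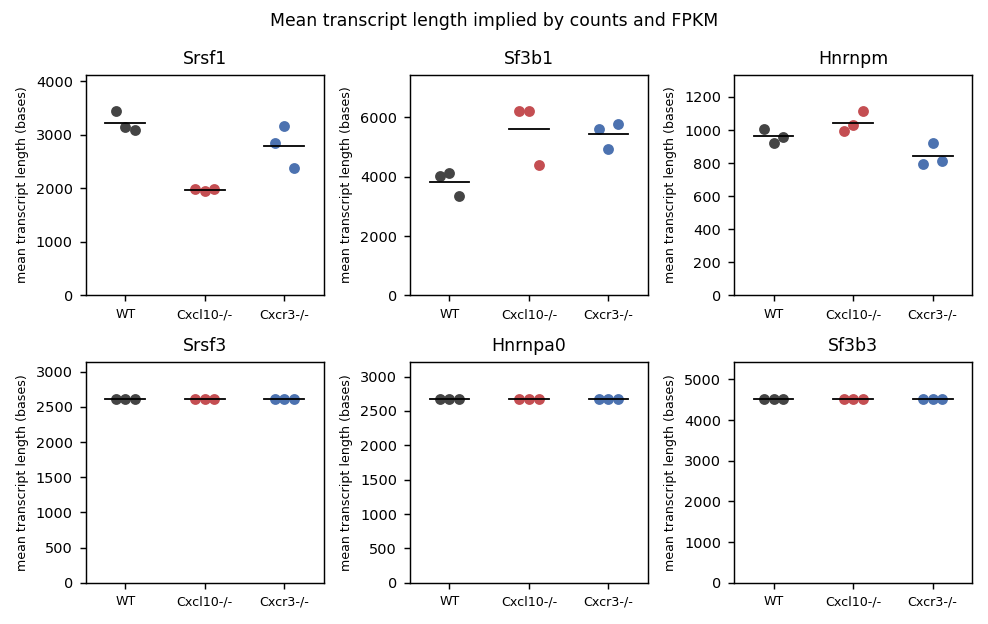
Mean transcript length in bases implied by counts and FPKM, by genotype, with 1 point per library and a line at the mean, each axis starting at 0. Srsf1 is at 1950 to 1990 bases in the 3 Cxcl10-/- libraries and at 3090 to 3440 in WT, and Sf3b1 is longer in both knockouts than in WT. Srsf3 and Sf3b3 hold nearly 1 length throughout. Hnrnpa0 has 1 annotated transcript, so its length could not vary.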

How the data were processed

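RNA of LT-HSCs from 9 mice was amplified with a whole-transcriptome kit and made into libraries with a transposase-based kit, per the labels' protocols, with no batch or day stated. The authors' deposited table gives expected counts and FPKM per gene and library. RSEM, StringTie, HISAT2 and fastp are the tools listed, per the submitters' processing notes, with no version, role or order. The build, annotation and strand setting were not given in the sources used here. Whole numbers made up 87.1% of the deposited expected counts. FPKM divide by the library total, which includes mitochondrial transcripts, and by a transcript length that can differ between libraries.

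Counts were rounded, and 10866 genes that averaged 1 FPKM or more over the 9 libraries were tested with edgeR 4.0.16 (TMM factors, quasi-likelihood test, 1 mean per genotype over all 9 libraries) in R 4.3.3. P-values were adjusted by the Benjamini-Hochberg method over all genes, with a threshold of 0.05. Each p-value measures the spread between 3 mice per genotype. Transcript lengths were tested with limma 3.58.1 (robust moderation) on 7939 genes with at least 50 counts and 1 FPKM in every library. The scripts were tested on simulated counts. Alternatives were other normalizations and filters, DESeq2 1.42.0, limma on log2(FPKM + 1) and log2(FPKM + 0.1), voom, an offset for GC content and length (loess, span 0.75, on the longest GENCODE M21 transcript), a replicate block and each library left out. The rule for named genes took, per comparison, members past the threshold (up to 10 per direction), the 3 of smallest p where fewer than 3 passed, the 3 of highest FPKM per family, and up to 3 called genes per direction of each pathway list. The members and all lists, markers included, were chosen with earlier results of these data known. The limit on overlapping genes applies to 18 of the 40 members, whose exons overlap another gene in GENCODE M21, 15 of them on the opposite strand. Among the other marker lists, no tested neutrophil (3 of 7), monocyte and macrophage (4 of 7) or B cell marker (1 of 6) was called in any comparison. The remaining markers of these lists were not tested. The tested neutrophil markers had a median log2 difference of 2.80 in Cxcl10-/- against WT. In Cxcl10-/- against WT 1 of 4 tested erythroid markers (Hba-a1) was higher and 1 of 2 T and NK cell markers (Nkg7) was lower. Between the knockouts 2 erythroid markers (Hba-a1 and Hbb-bs) were lower and 1 of 6 megakaryocyte markers (Pf4) was higher in Cxcr3-/-. In WT, Cxcl10-/- and Cxcr3-/-, the summed FPKM were 332 to 401, 171 to 227 and 201 to 406 for T and NK cells and 47.5 to 72.2, 65.8 to 380 and 48.4 to 51.5 for erythroid cells. They were 11.1 to 22.8, 14.5 to 180 and 4.89 to 25 for neutrophils and 50.4 to 71.4, 39.3 to 134 and 14.3 to 77 for B cells. In Cxcl10-/- the monocyte sums were 387 to 448 and the megakaryocyte sums 275 to 443.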

Additional observations from a re-analysis of the deposited data

How the results depend on the processing

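Against the 2 members called in Cxcl10-/- against WT, DESeq2 called 4, voom 1, the replicate block 1 and the GC and length offset 5. Leaving out 1 library gave 1 to 4, with 1 without WT replicate 1, WT replicate 2 or Cxcl10-/- replicate 2 and 4 without Cxcl10-/- replicate 1. Against 785 genes in all, DESeq2 called 1498, no filter 1183, only the compared genotypes 414 and the replicate block 442, and leaving out 1 library gave 193 to 1003 (229 without WT replicate 1, 193 without replicate 2 and 253 without replicate 3). In Cxcr3-/- against WT, where no gene was called, DESeq2 called 1 member and 68 genes, voom 1 and 42, and no filter 38 genes, and leaving out 1 library gave 0 members and 0 to 6 genes (6 without Cxcr3-/- replicate 2). Against 8 members between the knockouts, voom called 4, only the compared genotypes 3 and the replicate block 5, and leaving out 1 library gave 3 to 7 (3 without Cxcr3-/- replicate 1 or 3, 5 without WT replicate 1). Against 1142 genes there, DESeq2 called 1814, voom 634 and only the compared genotypes 423, and leaving out 1 library gave 423 to 1407 (423 without Cxcr3-/- replicate 1, 517 without replicate 3). Against 6 members for any genotype, DESeq2 called 10, voom 10 and the replicate block 3, and leaving out 1 library gave 2 to 8 (2 or 3 without any one of the WT libraries, Cxcl10-/- replicate 2 or Cxcr3-/- replicate 1 or 3). The cause of these shifts was not tested; fewer libraries or genotypes leave fewer residual degrees of freedom. The log2 difference of Srsf1 in Cxcl10-/- against WT was -0.12 and turned to 0.66 and 0.67 with limma on log2(FPKM + 1) and log2(FPKM + 0.1), which divide by length, and to 0.34 with the GC and length offset. For transcript length, no member was called, against 1 (Srsf1) in Cxcl10-/- against WT with a minimum SD of 0.02 or 0.05 and 1 (Srsf1) between the knockouts with a minimum of 0.05; leaving out 1 library gave 0 to 1 in each comparison. Same-numbered libraries did not deviate together (r from -0.0836 to 0.0191), so no pairing by number was seen. Deviations from means of 3 libraries, taken over all tested genes, cannot exclude one. The block is a check only. The alternatives for transcript length were chosen after seeing the data. With 3 mice per genotype, low-count members such as Srsf12 and Sf3a2 allow only large differences to be seen.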
